A study of Mus musculus with 2 samples.

Results

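The replication-dependent histone genes of the mouse encode the linker histones H1 and the core histones H2A, H2B, H3 and H4 that package newly copied DNA. The set described here holds every protein-coding gene on chromosomes 1 to 19 whose current symbol begins with H1f, H2ac, H2bc, H3c or H4c and a digit, or with the older Hist1h to Hist4h, which gave 67 of 20661 protein-coding genes. Of these, 53 lie in the large histone cluster of chromosome 13, 10 in the cluster of chromosome 3, and 4 H1 genes (H1f0, H1f7, H1f8 and H1f10) stand alone. H1f0 and H1f10 are background linker histones made outside DNA replication, and H1f6, H1f7, H1f8, H2ac1 and H2bc1 are known from germ cells, so the symbols take in some genes that are not replication-dependent.

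The data are ChIP-seq peak lists for the asymmetric dimethyl mark on arginine 17 of histone H3, H3R17me2a, from 2 samples of wild-type mouse heart at postnatal day 21. The labels name no other genotype, treatment or control sample, and nothing says whether the samples came from separate animals. Both titles carry the name carm1 in spite of the wild-type genotype, the design text speaks of neonatal hearts, and the protocol gives the antibody target as H3R17me2. The title of the series names Carm1, the arginine methyltransferase known to write this mark, and cardiac maturation, which is the question the study addresses. The source label reads as a fibroblast culture, but both the tissue entry and the protocol speak of whole cardiac tissue. Of 10 cardiomyocyte markers 9 (among them Actc1, Ttn and Ryr2) had a peak in both lists within 1000 bp of the gene, and 0 of 10 fibroblast markers did, while Col1a1, Col1a2 and Pdgfra had one in list 2 only. The endothelial markers had 1 of 5 and the immune markers 1 of 5. Over all protein-coding genes, the share with a peak in both lists within 1000 bp was 47.1%. The marker groups were not tested against that share.

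Histone genes of this kind are short and mostly without introns, and they sit in dense clusters in which many H2A and H2B genes lie back to back and share the DNA between their starts. Their transcription is switched on at entry into DNA synthesis through the coactivator Npat, and their mRNAs end in a stem-loop bound by Slbp instead of a poly(A) tail. Their promoters are known for TATA boxes and CCAAT boxes, and H2B promoters for an octamer element bound by Pou2f1 (Oct-1). Most cardiomyocytes of the mouse leave the cell cycle in the weeks after birth.

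The sequences below are the 250 bases before the annotated start of 6 genes on chromosome 13, 5′ to 3′, from RefSeq (GRCm38.p6, the coordinates of mm10). They were chosen to set promoters of genes with a peak of both lists (H2bc8, H3c2, H1f2, H4c3 and H4c8) beside that of an H4 gene without any (H4c6). At H3c2 only the list 2 peak overlaps the printed bases, and the list 1 peak lies inside the gene. Capitals mark the TATA box (TATAAA), the CCAAT box (CCAAT) and the octamer (ATTTGCAT). They are marked on either strand, so that a CCAAT box of the other strand reads ATTGG.
H2bc8, chr13:23571150-23571399, plus strand: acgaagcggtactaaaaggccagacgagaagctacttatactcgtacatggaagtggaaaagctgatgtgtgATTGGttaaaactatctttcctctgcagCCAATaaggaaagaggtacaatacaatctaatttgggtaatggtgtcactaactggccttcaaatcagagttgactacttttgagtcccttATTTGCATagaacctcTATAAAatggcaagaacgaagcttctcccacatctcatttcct
H3c2, chr13:23752095-23752344, plus strand: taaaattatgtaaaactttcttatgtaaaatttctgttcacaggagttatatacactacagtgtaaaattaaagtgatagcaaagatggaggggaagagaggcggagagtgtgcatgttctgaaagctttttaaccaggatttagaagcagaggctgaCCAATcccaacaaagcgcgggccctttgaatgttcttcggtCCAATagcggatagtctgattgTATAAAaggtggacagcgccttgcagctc
H1f2, chr13:23738557-23738806, plus strand: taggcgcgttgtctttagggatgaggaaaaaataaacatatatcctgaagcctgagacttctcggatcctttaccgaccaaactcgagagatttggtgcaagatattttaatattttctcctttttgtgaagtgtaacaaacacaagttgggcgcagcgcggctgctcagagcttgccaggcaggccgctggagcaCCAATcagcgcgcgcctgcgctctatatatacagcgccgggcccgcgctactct
H4c3, chr13:23698459-23698708, minus strand: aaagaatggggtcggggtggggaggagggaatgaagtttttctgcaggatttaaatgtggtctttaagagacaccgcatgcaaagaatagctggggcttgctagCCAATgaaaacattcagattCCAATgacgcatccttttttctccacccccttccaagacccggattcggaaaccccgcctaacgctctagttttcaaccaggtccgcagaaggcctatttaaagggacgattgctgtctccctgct
H4c8, chr13:23530794-23531043, plus strand: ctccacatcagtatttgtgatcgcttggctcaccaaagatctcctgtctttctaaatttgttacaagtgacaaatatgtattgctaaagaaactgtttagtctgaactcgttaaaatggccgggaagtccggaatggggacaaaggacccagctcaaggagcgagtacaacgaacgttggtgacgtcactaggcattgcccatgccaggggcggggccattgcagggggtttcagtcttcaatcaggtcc
H4c6, chr13:23551669-23551918, minus strand: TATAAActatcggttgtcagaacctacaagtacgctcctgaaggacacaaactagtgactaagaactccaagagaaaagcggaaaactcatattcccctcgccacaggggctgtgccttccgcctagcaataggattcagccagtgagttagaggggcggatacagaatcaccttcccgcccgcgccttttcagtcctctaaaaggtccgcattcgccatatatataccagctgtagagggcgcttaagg

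Each sample has a peak list of its own, called list 1 and list 2 here, with 21496 and 38012 peaks. Peak lists give no total read depth, but the ChIP reads and the background behind each summit could be worked out from the fold enrichment and the p-value of the peak, to whole reads in 99.995% of list 1 and 99.997% of list 2 peaks for which this was tried. Of the 20878 list 1 peaks that overlapped a list 2 peak, 8812 (42.2%) had their summit on the same base, and reads were compared only there. The ChIP reads at these summits differed by a median of 1 and by at most 2 in 80.5% of them. For that reason the samples were taken as 1 in every count. Values from list 1 and list 2 side by side carry no replicate error, and no mean ± SD or p-value is given.

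A peak of both lists lay within 1000 bp of 43 of the 67 histone genes (64.2%, 95% exact binomial interval 51.5 to 75.5%), against 47.1% of all protein-coding genes on the same chromosomes. A further 10 histone genes had a peak in list 2 only, 14 had none, and no gene had one in list 1 only. List 1 reached 43 of 67 (64.2%, against 47.6% of all genes) and list 2 reached 53 (79.1%, against 57.3%). Without the added 1000 bp the shares lay closer together, with 33 of 67 histone genes (49.3%) against 44.7% of all genes. Long genes meet a peak more easily than short ones, and the histone genes have a median span of 496 bp. Among the 1327 other protein-coding genes of at most 1000 bp, 2.64% had a peak of both lists. That group is mostly receptors of smell, pheromones and taste (994 genes, 74.9%), and among its other 333 genes the share was 10.5%. Genes that lie side by side share peaks, so the interval and these shares treat as separate what often is not.

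The 43 genes rested on few peaks. List 1 had 36 different peaks within 1000 bp of a histone gene, all of which overlapped a list 2 peak, and list 2 had 45. Of these, 20 in list 1 and 27 in list 2 reached more than 1 histone gene, and the most reached by 1 peak was 3 (H2ac21, H2ac20 and H2bc21 on chromosome 3 in both lists, and H2bc13, H2ac13 and H3c10 in list 2). A peak overlapped the span of the gene itself, without the added 1000 bp, in 33 of the 43 genes in list 1 and in 41 in list 2. When each peak was given only to the histone gene nearest its summit, an alternative chosen after the data were seen, 32 genes kept a peak of both lists. No share of all genes was worked out under that rule.

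**Figure D1:**
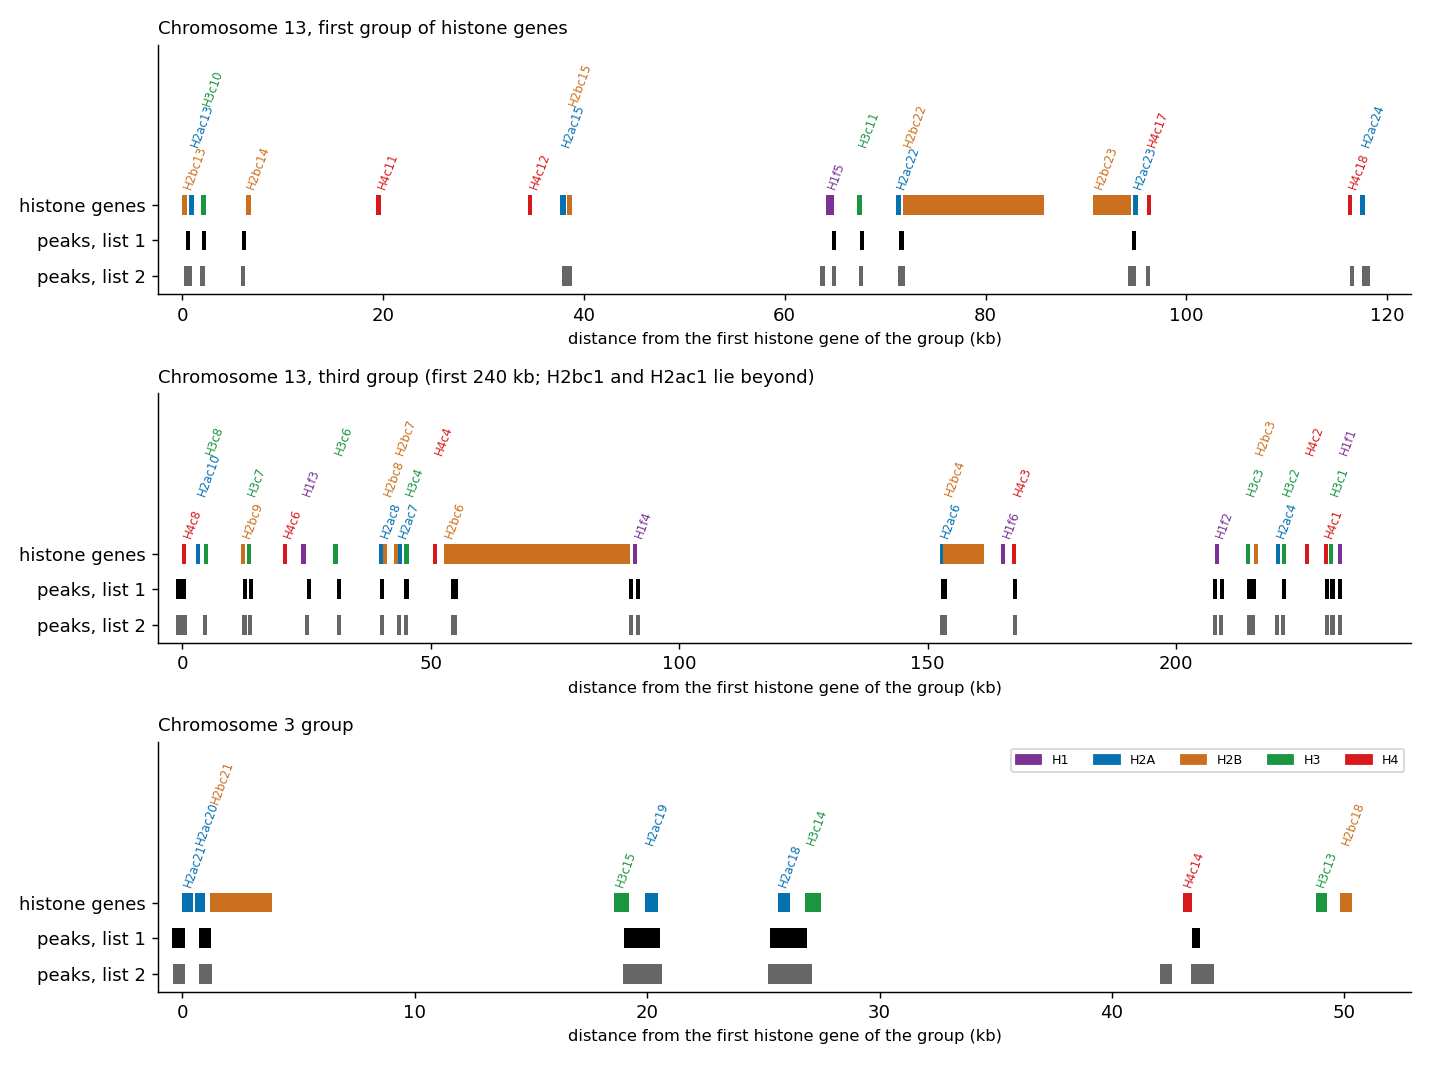
Histone genes of the first and the third group of chromosome 13 and of the chromosome 3 group (coloured boxes, by class) above the peaks within 1000 bp of a histone gene in list 1 (black) and list 2 (grey), against distance in kb from the first histone gene of the group; narrow boxes are widened to stay visible. Peaks stand at most H2A, H2B and H3 genes, while H4c11, H4c12, H4c6, H4c4 and H4c2 have none beneath them.

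The share of genes with a peak of both lists was lowest for H4 and highest for H3. A peak of both lists was found at 10 of 12 H3 genes (83.3%, exact interval 51.6 to 97.9%), 12 of 17 H2A genes (70.6%, 44 to 89.7%), 11 of 16 H2B genes (68.8%, 41.3 to 89%), 6 of 10 H1 genes (60%, 26.2 to 87.8%) and 4 of 12 H4 genes (33.3%, 9.92 to 65.1%). The 47.1% of all protein-coding genes lies inside the intervals of H2A, H2B, H1 and H4 and below that of H3. The intervals of all 5 classes overlap, and genes of a class are not replicates, so the difference between classes was described and not tested. With each peak given only to the nearest gene, the counts were 8 for H3, 9 for H2A, 5 for H2B, 6 for H1 and 4 for H4. The H4 count did not change, and H2B, with 5 of 16, then had a lower share than H4, with 4 of 12, so that H4 was no longer the lowest class. The first place of H3 was not firm either. With the summit in the window, H3 had 8 of 12, a lower share than H2A with 12 of 17 and H2B with 11 of 16. In list 2 alone, H2A had 94.1% and H3 91.7%.

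**Figure D2:**
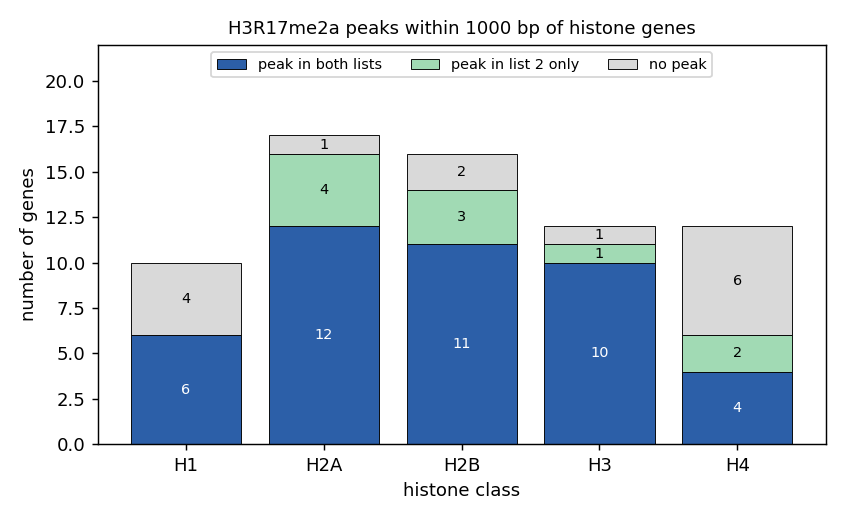
Number of histone genes of each class (bars, genes counted on the vertical axis) with a peak in both lists, in list 2 only, or in neither, within 1000 bp of the gene. H4 has 6 of its 12 genes without a peak, more than any other class.

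H3 genes encode the histone whose tail carries the mark. H3c2 (chr13:23752345-23752840) had a fold enrichment over background of 5 in list 1, from 19 reads on a background of 3, and of 7.61 in list 2, from 23 reads on 1.62. H3c10 had the same fold of 5 from 19 reads in list 1 and a fold of 7.01 from 26 reads in list 2. Both peaks had their list 1 summits inside the gene, 172 and 90 bp after the start. H3c7 had the summit with the most reads of all 36 in list 1, 225 (95% exact Poisson interval 197 to 256, counting error only) on a background of 57, with a fold of 3.9 and a −log10 p of 63.3. In list 2 the strongest peak in the H3c7 window was another one, at the neighbouring H2bc9, with a fold of 7.21 from 45 reads. A summit of 19 reads, as at H3c2 and H3c10, has an exact Poisson interval of 11.4 to 29.7 reads, so the place of these genes in an order by fold is not firm.

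The folds of other H3 genes were 3.6 and 5.07 at H3c4, 2.81 and 2.84 at H3c11, and 2.24 and 2.68 at H3c6 (list 1 and list 2). The strongest peak in the H3c3 window (4.12 and 4.19) lies nearer to H2bc3, and the peak nearest H3c3 itself had folds of 3.2 and 3.46. H3c1 shares its window with H4c1, and the strongest peak of list 1 there (fold 2.73, 100 reads) is the one at the H4c1 start. H3c14 and H3c15 had the lowest folds of the class in list 1, 1.84 and 1.63, on the highest backgrounds, 112 and 119 reads. These wide peaks reach into the H3 genes, but their list 1 summits lie 68 bp before the start of H2ac18 and 24 bp before that of H2ac19. H3c8 had a peak in list 2 only, with a fold of 3.59 from 39 reads. H3c13 of chromosome 3 had none, and its nearest peak was 4983 bp away in list 1 and 4367 bp in list 2.

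H2A and H2B genes, which encode the partners of the H2A-H2B dimer, shared many of their peaks. RefSeq starts place 9 H2A-H2B pairs back to back, with 164 to 281 bp between their starts (median 180). A peak of both lists lay over that stretch in 5 pairs (H2bc13 with H2ac13, H2ac22 with H2bc22, H2bc23 with H2ac23, H2ac11 with H2bc11, and H2ac8 with H2bc8), and a list 2 peak in 7. At H2ac8 and H2bc8, whose shared promoter is printed above, 1 peak of 832 bp in list 1 covered both starts with a fold of 4.55 from 49 reads, and the list 2 peak had a fold of 5.42 from 51 reads. At H2ac11 and H2bc11 the list 1 peak was 193 bp wide and lay across the start of H2ac11 and the stretch between the genes, with a fold of 2.05 from 130 reads on a background of 63. The list 2 fold there was 2.86 from 128 reads. The pair H2ac12 and H2bc12 had no peak over that stretch in either list, and a weak list 2 peak (fold 2.26, −log10 p 3.76) inside H2ac12.

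Other H2A and H2B genes had their strongest peak at a neighbour. H2ac4 and H2ac13 were among the 12 histone genes with the lowest summed rank by fold through the peaks inside H3c2 and H3c10, each of 19 reads in list 1, and in list 1 the nearest peak lay 842 bp from H2ac4. In list 2 H2ac4 also had a peak inside the gene, with a fold of 5.3 from 21 reads. H2ac7 had its list 1 peak 841 bp away, inside H3c4 (fold 3.6), the farthest but 1 that still counted. The nearest list 1 peak that did not count lay 1183 bp from H4c17. H2ac6 and H2bc4 shared a peak of 1190 bp with folds of 3.93 and 3.89. H2bc14 had folds of 2.61 and 2.4, H2bc3, whose strongest peak lay before its start, 4.12 and 4.19, and H2bc6 3.5 and 4.41. The H2bc6 value of list 1 came from a summit of only 12 reads (exact Poisson interval 6.2 to 21), while the list 1 peak that matches the list 2 value had 82 reads and a fold of 2.59.

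Linker histone genes were marked at 6 of 10 (60%), against 47.1% of all protein-coding genes. H1f1 to H1f5, the somatic H1 genes of the chromosome 13 cluster, and H1f0, the linker histone of differentiated cells, each had a peak of both lists. H1f2 had the highest list 1 fold of all 36 peaks, 5.8 from 30 reads, at a summit 1105 bp after its start, and a second list 1 peak just before its start with a fold of 3.23 from 41 reads. In list 2 its strongest fold was 4.91, at the peak before its start, and the later peak had 3.91. The folds were 2.79 and 3.88 at H1f1, 2.3 and 6.57 at H1f3, and 4.17 and 3.61 at H1f0. At the start of H1f4 they were 1.98 and 3.14, and a list 1 peak nearer to H2bc6 reached 2.91. At the start of H1f5 they were 2.83 and 2.07, and a peak of list 2 alone, 1183 bp after the start, had a fold of 4.59. H1f3 was marked beyond its 3′ end and not at its start, with the list 1 peak 287 bp away from the gene. H1f10, another somatic linker histone, had no peak, and the nearest lay 63369 bp away in list 1 and 14417 bp in list 2.

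The 5 histone genes known from germ cells had no peak in either list. They are the testis genes H1f6, H1f7, H2ac1 and H2bc1 and the oocyte gene H1f8, and they were grouped after their values were seen. A peak of both lists was found at 47.1% of all protein-coding genes and at 2.64% of the other genes of at most 1000 bp. The absence at these 5 genes is therefore described only. For H2ac1 and H2bc1, which share a promoter at the far end of the chromosome 13 cluster, the nearest list 1 peak lay 170640 and 169928 bp away. H1f6 sits among marked genes, 1699 bp from the nearest list 1 peak and 1650 bp from the nearest of list 2.

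H4 genes were marked at H4c1, H4c3, H4c8 and H4c14. H4c8 (chr13:23531044-23531478) had the widest peak at any histone gene, 1921 bp in list 1 and 2095 bp in list 2, with folds of 3.64 from 101 reads and 5.99 from 105. H4c3 had folds of 2.41 from 141 reads and 3.29 from 142. H4c14 of chromosome 3 had folds of 3.72 from 25 reads and 3.84 from 17, where the list 1 peak began 28 bp outside the gene and the strongest list 2 peak was another one, on the other side of the gene. H4c1 had 2.73 and 4.58, and the list 2 value came from the peak at H3c1 next to it. No peak reached H4c2, H4c4, H4c6, H4c9, H4c11 or H4c12, and their nearest peaks of list 1 lay from 1542 bp (H4c9) to 28171 bp (H4c12) away. H4c17 and H4c18 had a peak in list 2 only, with folds of 3.92 and 6.16 from 31 and 30 reads.

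The clusters of chromosomes 3 and 13 had overlapping intervals for the share of marked genes, which was 47.1% over all protein-coding genes. In chromosome 3, 8 of 10 genes had a peak of both lists (80%, exact interval 44.4 to 97.5%), and in chromosome 13 34 of 53 (64.2%, 49.8 to 76.9%). The chromosome 3 genes without one, H3c13 and H2bc18, are the last pair of their cluster. The folds of that cluster were low in list 1 apart from H4c14, with 2.83 and 3.67 at H2ac20, H2ac21 and H2bc21, which share a peak, 1.63 and 3.62 at H2ac19, and 1.84 and 3.38 at H2ac18. Within chromosome 13, gaps of over 200 kb divide the genes into groups with 10 of 17 (58.8%), 2 of 5 (40%) and 22 of 31 genes (71%) marked. Their density of list 1 peaks was 5.94, 11.7 and 5.45 in 100 kb, and 9.94 in the chromosome 3 cluster, where the group with 11.7 holds 1 peak in 8.54 kb. All 10 genes with a peak in list 2 only lie in the chromosome 13 cluster: H2ac10, H2ac12, H2ac15, H2ac24, H2bc7, H2bc12, H2bc15, H3c8, H4c17 and H4c18. Their list 2 folds ran from 2.26 at H2ac12 and H2bc12 to 6.16 at H4c18 and H2ac24, with 3.48 at H2ac15 and H2bc15, 3.59 at H2ac10 and 2.72 at H2bc7. Some of these belong to a neighbour. The 6.16 is the peak at the H4c18 start, and the peak nearest H2ac24 itself had 2.87. The 3.59 is the peak at H3c8, 840 bp from H2ac10, and the 2.72 has its summit inside H2ac7.

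The third group of chromosome 13 also spans 6 protein-coding genes that are not histones, and none had a peak of both lists. Hfe, the iron-regulating gene of hereditary haemochromatosis, had a peak in list 1 only (fold 5.33 from 14 reads). Trim38 and the phosphate and urate transporter genes Slc17a1, Slc17a2, Slc17a3 and Slc17a4 had none. The share over all protein-coding genes was 47.1%. The Slc17a genes are neighbours of one family, so the 6 genes are not separate cases, and a contrast with the histone genes was not tested.

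Peaks stood close before the starts of the histone genes. Of the 33 list 1 peaks whose nearest gene has a start in the RefSeq promoter table, 27 had their summit within 200 bp of a start, 23 of them upstream and 4 downstream, and the median distance was 73 bp. In list 2 the count was 31 of 41, with 23 upstream and 8 downstream and a median of 84 bp. Among the exceptions were the peaks past the 3′ ends of H1f2, H1f3 and H1f0.

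**Figure D3:**
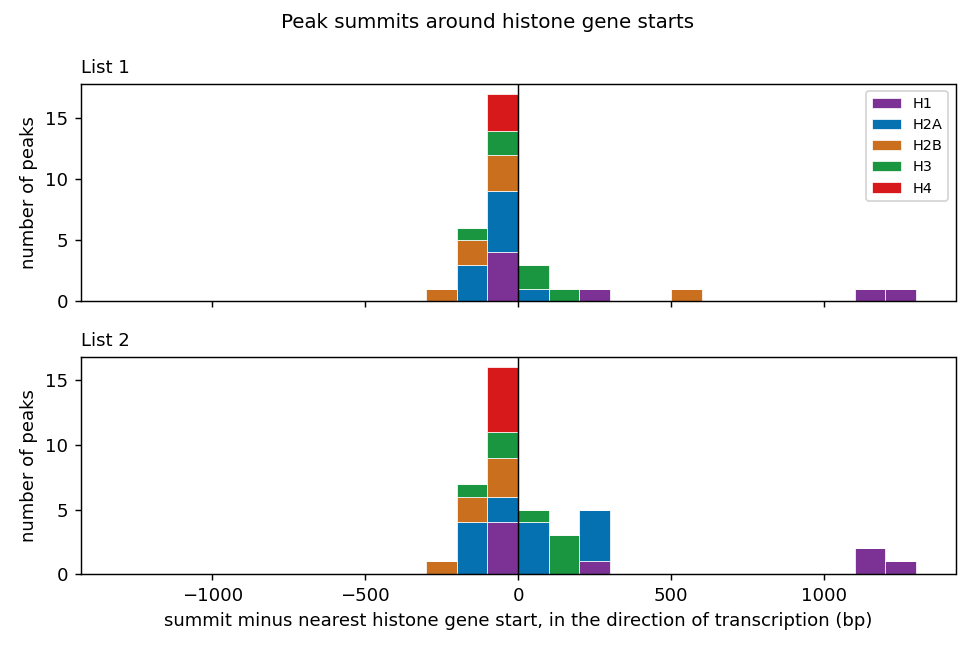
Number of peaks (vertical axis) by the distance of their summit from the nearest histone gene start in bp, negative values upstream, in 100 bp steps and coloured by class of that gene, for list 1 (upper panel) and list 2 (lower panel); peaks farther than 1300 bp, and those whose nearest gene has no start in the promoter table, are not drawn. Most summits fall within 200 bp, and the bars drawn beyond 1000 bp belong to H1 genes.

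The peaks at histone genes had low folds in list 1 and many reads. Their median fold was 2.83 in list 1, where the median of all peaks was 4.98, and 33 of the 36 lay below that median. In list 2 the median was 3.62 against 3.53, and 20 of 45 lay below. The list 2 medians of all peaks include peaks with a −log10 p below 5, which list 1 does not hold. Taken over genes marked in both lists, by the strongest peak of each, the median fold of the histone genes was lower in both lists, 2.83 against 4.89 for all protein-coding genes in list 1 and 3.92 against 4.52 in list 2. The number of reads at the summit was higher than usual in both lists, with a median of 48.5 against 26 in list 1 (range 12 to 225) and of 46 against 15 in list 2 (range 17 to 244). The background was higher as well, 13.5 reads against 4 in list 1 and 12.9 against 1.99 in list 2, and it exceeded the median of the list at 33 of 36 and 44 of 45 peaks. A strongest peak among genes marked in both lists had a median background of 14 reads at the histone genes and 7 at all protein-coding genes in list 1, and of 12.9 and 6.47 in list 2, with 50 and 41 ChIP reads in list 1 and 51 and 41 in list 2. Whether the background or the mark sets these folds was not tested.

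**Figure D4:**
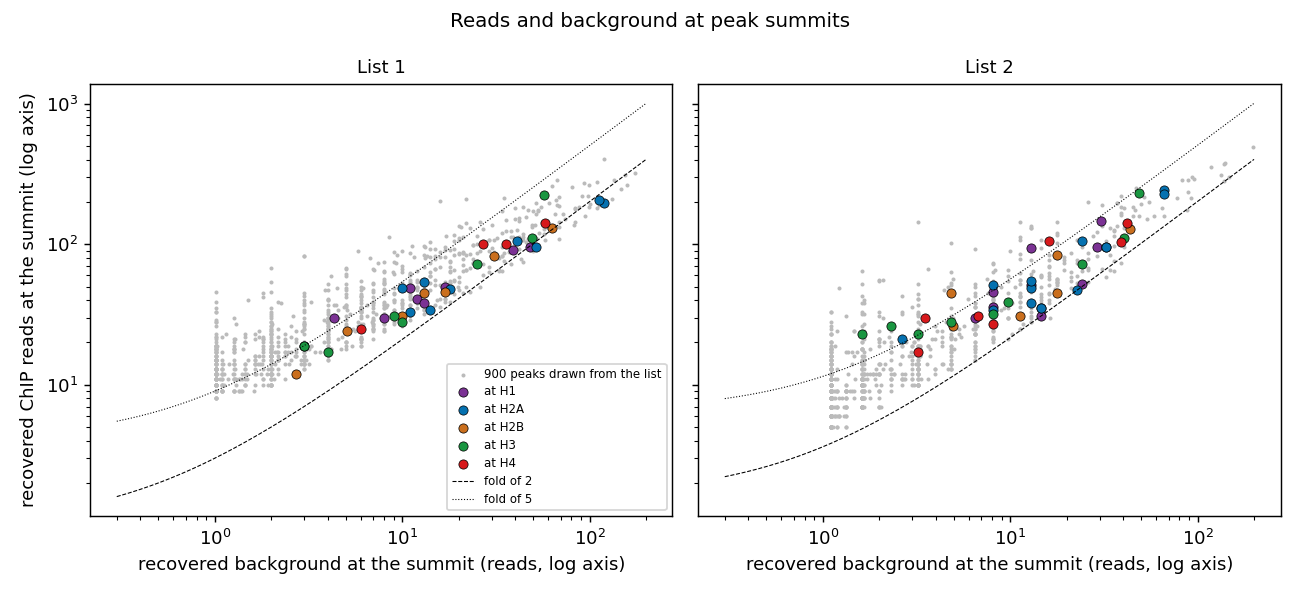
Recovered ChIP reads against recovered background at the peak summit, both in reads on log axes, for peaks within 1000 bp of a histone gene (coloured by class of the nearest gene) and 900 peaks drawn at random from each list (grey), with lines at folds of 2 and 5. The histone peaks lie to the right of most grey points and mostly below the line for a fold of 5.

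In the upper 50% of each list by fold, 5 of the 67 histone genes kept a peak of both lists (7.46%), against 21.6% of all protein-coding genes, so that the histone genes stood above the share of all genes with all peaks and below it with the strongest by fold. The 5 were H1f2, H2ac13, H2ac4, H3c10 and H3c2. H4, H2B and the chromosome 3 cluster had none. At a common −log10 p of at least 5, by contrast, 41 histone genes (61.2%) were marked against 41.7% of all genes.

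Some histone genes are near-copies of each other, and reads from copies cannot be told apart where the sequence is the same. RefSeq promoters (250 bases before to 50 after the start) were matched for 62 of the 67 genes, and 11 of them held at least 1 stretch of 50 bases that stands at another place among all promoters. The share of such stretches was highest at H2bc23 (100%), and the other copies were H4c17 with H4c18 (94%), H3c14 with H3c15 (74.1%), H2ac18 with H2ac19 (67.7%), H4c11 with H4c12 (11.6%), and H2ac23 with H2ac24 (86.9% and 73.3%). The peaks at these genes are uncertain as to their gene. The 3 lowest folds of list 1 stood at such genes, 1.63 at H3c15 with H2ac19, 1.83 at H2bc23 with H2ac23 and 1.84 at H3c14 with H2ac18. In list 2 the peaks at H2ac23 with H2bc23 and at H2ac24 had the same fold of 2.87 and the same 96 reads, whereas list 1 had a peak with 96 reads at H2ac23 with H2bc23 and none at H2ac24. No other peak of list 2 has this deposited fold and p-value. The list 2 peaks at H2bc13 with H2ac13 and at H2ac12 also had equal values (fold 2.26, 35 reads), which 7 peaks of list 2 share. Copies were looked for in promoters and not in gene bodies, where the H2ac12 peak lies. How reads that fit several places were handled was not stated in the labels. Without such promoter copies, 32 of 51 genes were marked in both lists, and with them 6 of 11.

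CCAAT boxes followed the classes. In the 250 bases before the start, CCAAT or its reverse stood in 17 of 17 H2A, 14 of 14 H2B, 8 of 10 H3 and 7 of 10 H1 promoters, and in 3 of 11 H4 promoters, against 33.8% of all 32851 promoters of the table. Of the 49 histone genes with a CCAAT, 34 had a peak of both lists (69.4%), and of the 13 without, 4 had (30.8%): H1f0, H3c14, H3c15 and H4c8. Among H4 genes the CCAAT stood before H4c1 and H4c3, which were marked, and before H4c4, which was not. TATAAA stood in 45.2% of the histone promoters against 12.4% of all, in 17 of 38 marked and 6 of 14 unmarked genes. The octamer ATTTGCAT stood in 6 of 17 H2A and 6 of 14 H2B promoters and in none of H1, H3 or H4, against 1.6% of all promoters. In the sequences printed above, H2bc8 holds all of these elements, H4c8 none, and H4c6 a TATAAA at its far end only. These are letter matches, promoters of a back-to-back pair share bases, and class and CCAAT cannot be told apart in these counts.

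Of 21 genes that switch on or process the histone mRNAs, 20 had a peak of both lists. Pou2f1, which binds the octamer, had folds of 9.95 and 7.57 from 19 reads in each list, the cap-binding gene Ncbp1 9.82 and 6.62, and Nfyc, a subunit of the factor NF-Y that binds CCAAT, 8.35 and 6.27 from 316 and 323 reads. Npat, the coactivator of these genes, had 8.9 and 5.29, and Slbp, the stem-loop binding protein, 6.2 and 3.48. Hinfp, the transcription factor of H4 genes, had 1.95 and 3.04 from 281 and 284 reads. Nfyb, another subunit of NF-Y, had a peak in list 2 only. Genes longer than the histone genes meet peaks more often, and the share of 47.1% over all genes applies to them.

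Of 19 histone chaperone and assembly genes, 15 were marked (78.9%), against 47.1% of all protein-coding genes on chromosomes 1 to 19. Hat1, which acetylates new H4, had folds of 9 and 19.2, Asf1b, a chaperone of H3 and H4, 10.9 and 7.93, and Npm1 5.75 and 6.43. Chaf1b, a subunit of the assembly factor CAF-1, had no peak, and Atrx, Ipo4 and Nap1l1 had one in list 2 only. Of 16 genes of DNA synthesis, 11 were marked (68.8%), against the same 47.1%. The lowest summed ranks by fold over both lists were those of Gins2 (9.95 and 6.9), Rrm2 (6.29 and 5.02) and Ccne1 (5.88 and 4.8). Orc1 was higher than Ccne1 in list 1 (6.1) and Cdc25a higher than Rrm2 in list 2 (5.95), while Pola1, Rrm1 and Tyms had no peak and Cdc6 and Mcm5 had one in list 2 only. The chaperone genes Atrx and Rbbp7 and the DNA synthesis gene Pola1 lie on chromosome X, which the 47.1% leaves out.

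All 9 replication-independent histone genes kept on the list had a peak of both lists, against 47.1% of all protein-coding genes. The list as drawn up also held H1f7, H1f8 and H1f10, which were left out because their symbols place them among the 67 genes. None of these H1 genes had a peak in either list. Those kept are H3f3a and H3f3b, which encode H3.3, the H2A variant genes H2az1, H2az2, H2ax, H2aj, Macroh2a1 and Macroh2a2, and the centromeric H3 gene Cenpa. Folds were 5.47 and 4.26 at H3f3a, 5.66 and 3.57 at Macroh2a2, and 2.81 and 5.02 at Cenpa. Their median fold was 2.73 in list 1 and 3.57 in list 2, and their median background was 35 and 22.6 reads. Those folds are near the medians of the marked replication-dependent genes, 2.83 and 3.92, on a higher background. H3f3b, with 311 and 319 reads, had folds of only 1.93 and 2.72.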

How the data were processed

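H3R17me2a ChIP-seq peaks were analysed from 2 samples of wild-type heart at day 21. FastQC, Bowtie2 and mm10 are named in the submitters' processing notes. Which peak caller, control library and filters were used is not given here. The deposited lists have the 10-column narrow peak layout, without a header. The fold of a peak is the deposited linear ratio of ChIP signal to background, its p-value and q-value are deposited on a −log10 scale, and the deposited score is about 10 times the −log10 p. All are the authors' values.

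Reads at a summit were recovered by taking the fold as (reads + 1) / (background + 1) and p as the upper Poisson tail. This matched 99.995% of list 1 p-values within 0.001, and 99.997% in list 2 with ChIP reads multiplied by 0.618, a factor found from list 2 alone. With p-values exchanged between peaks, 0.55% and 4.05% matched. On 400 simulated peaks for each of 2 known factors, 100% of the reads came back. Background is printed on the scale of ChIP reads. These values rest on that formula.

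Genes came from RefSeq (GRCm38.p6) by symbol. A gene was marked when a peak of each list overlapped its span, widened by 1000 bp, by at least 1 bp, and its fold is that of the strongest such peak in each list. Named were the 12 histone genes with the lowest summed rank by fold, all H1 genes, all genes outside the large cluster, up to 3 unmarked genes in each class in alphabetical order, genes marked in 1 list, and from each other list the 3 strongest and up to 5 unmarked genes. Further genes were named after their values were seen. The members and lists were chosen with earlier results of these data known. No tests were run, since the samples count as 1. Python 3.11.15, pandas 2.3.3 and scipy 1.17.1 were used.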

Additional observations from a re-analysis of the deposited data

How the results depend on the processing

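Results were recomputed with other windows (0 and 250 bp), with the summit in the window, at a −log10 p of 5 or a −log10 q of 2, in the upper 50% of each list by fold, with peaks that overlap by 50% of the narrower, and from each list alone. Of 150 values, 132 stayed within 1.5 times the reported count or within the 95% interval of the median, and 18 did not. The upper 50% by fold accounts for 15 of them: 5 genes marked in all, with H1 at 1, H2A at 2, H2B at 0, H3 at 2 and H4 at 0, chromosome 3 at 0 and chromosome 13 at 5, 3 peaks, median folds of 5 and 7.01, and 4 genes of DNA synthesis, 5 chaperones, 7 of histone mRNA and 2 replication-independent histones. The H2B count also fell to 6 with a window of 0 bp and to 5 with each peak at the nearest gene only, an alternative chosen after seeing the data. From 1 list alone, without replicate 2 and without replicate 1, the counts ranged from 43 to 53 in all, from 4 to 6 for H4, 10 to 11 for H3, 11 to 14 for H2B, 12 to 16 for H2A and 34 to 44 on chromosome 13, with H1 at 6 and chromosome 3 at 8. The non-histone neighbours ranged from 0 to 1, which is Hfe without replicate 2. The cause of these differences was not tested. H4 lay below the other classes together under every setting. Of the 43 genes, 26 kept their peaks under all settings but the upper 50% by fold. No paired analysis was possible because there is 1 group. Summits at histone genes with under 20 reads allow no order by fold.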

Other observations

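Renamed histone genes lay outside the symbols used above, and add genes on chromosomes 6 and 11. H4f16 (formerly Hist4h4, chromosome 6) had a peak of both lists, with folds of 3.5 in list 1 and 11.6 in list 2 from 48 reads each, on a background of 13 and 2.65 reads. H2aw (formerly Hist3h2a, chromosome 11) had folds of 2.66 and 7.31 from 148 and 152 reads. H2bu2 (formerly Hist3h2ba), near H2aw, had a peak in list 2 only, with a fold of 4.61 from 15 reads, as had H4bc24 (formerly Hist1h2br) on chromosome 13, with a fold of 2.87 from 96 reads. The H4bc24 peak is the one given above at H2ac24, with the same values as that at H2ac23 with H2bc23, so its gene is uncertain. With these 4 genes, added after the data were seen, 45 histone genes carried a peak of both lists.

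The background of the lists differed at histone genes in the other direction than over all peaks. At the 15 list 1 peaks of histone genes whose summit fell on the same base in list 2, the ratio of the list 1 to the list 2 background had a median of 1.38, and list 1 was higher at 10 of 15. Over all 8809 such peaks with recovered reads that ratio had a median of 0.865, and list 1 was higher at 33.2%. The median list 1 background was 25 reads at the 15 peaks and 4 over all. Other genes went either way, with list 1 higher at Hinfp (144 and 92.2 reads) and lower at Nfyc (37 and 50.1). Peaks of like background were not compared, so whether the direction is particular to histone genes was not tested. The reads at the 15 histone summits differed by at most 2 in 11. Over all overlapping pairs, list 2 had the higher fold at 25 of 36 histone peaks (69.4%) and at 30.2% of all peaks.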
